A study of Solanum lycopersicum with 18 samples.

Results

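Red ripe tomato fruit of San Marzano (SM) and of Heinz (H), both grown in the field at Sarno, were compared gene by gene. The members are the 3 SM and the 3 H libraries from Sarno, 6 of the 18 libraries of the series, taken by the cultivar and location given for each sample. Of the 30236 genes that could be matched between the SM and H tables through a single Solyc identifier, 14331 averaged 0.5 FPKM or more across these 6 libraries and were tested. FPKM, fragments scaled by transcript length and by the number of mapped fragments, is the unit of every level below.

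The series asks how the growing site and the variety shape the fruit transcriptome, with 3 varieties at 2 sites, Sarno and Acerra in Campania, and 3 replicates in each of the 6 groups. SM is a traditional variety of the Sarno area with elongated fruit, and H is the variety of the reference genome. Both groups used here share the organ (fruit, pooled by variety within a plot, chopped and powdered), the stage (red ripe), the standard field cultivation and the library kit, and differ in the variety. No treatment is named. It is not stated whether the 3 replicates of a group are separate plots or aliquots of pooled fruit, so the p-values measure the spread between these libraries, which may be technical. H fragments were counted on the Heinz genome (SL2.40) and SM fragments on an assembly of SM itself, each in a run of its own. Variety, assembly and run therefore cannot be told apart in any difference below. Since the RNA came from bulk fruit tissue, fewer cells of a type and less RNA per cell cannot be told apart either.

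Tomato is a climacteric fruit, in which a burst of ethylene drives ripening. ACC synthases make the precursor ACC, ACC oxidases turn it into ethylene, and ethylene response factors pass the signal on to target genes. During ripening, cell wall enzymes such as endoglucanases and xyloglucan endotransglucosylase/hydrolases (XTHs) loosen the wall and soften the flesh, while amino acid and phenylpropanoid metabolism shape taste and aroma.

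The 6 libraries resembled each other within a variety more than between varieties, with 1 library standing apart. Pearson correlations of log2(FPKM + 0.5) across the genes tested were 0.961 to 0.972 among the SM libraries. Among the H libraries the correlation was 0.966 between replicates 2 and 3, but 0.943 and 0.926 between replicate 1 and these. H replicate 1 also correlated least with SM, at 0.873 to 0.902. Genes above 0 numbered 17239 to 18267 in SM libraries and 17511 to 18609 in H libraries. The FPKM tables give no fragment totals, and those the study states were not used here. The spacing of the lowest values put SM replicate 2 at 1.71 times and SM replicate 3 at 1.24 times the depth of SM replicate 1, and H replicate 1 at 1.47 and 1.39 times that of H replicates 2 and 3. The ripening-associated ACC synthase gene ACS2 (Solyc01g095080) was at 20.3, 52.2 and 37.2 FPKM in SM and 246, 84.3 and 67.7 FPKM in H. Transcripts of green tissue were uneven within both varieties. The chlorophyll a-b binding protein gene Solyc03g115900 was at 0.289, 1.05 and 10.6 FPKM in SM and 3.91, 0.270 and 1.13 FPKM in H, and Solyc05g056050 at 0.230, 0.225 and 3.98 FPKM in SM and 1.13, 0.144 and 0.170 FPKM in H. The photosystem II-associated gene Solyc06g060340 was at 65.1, 33.2 and 71.4 FPKM in SM and 85.3, 21.7 and 74.3 FPKM in H. All 3 green-tissue genes were highest in replicate 3 within SM and in replicate 1 within H. Their part in the results below was not tested.

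Between SM and H fruit at Sarno, 597 genes passed the threshold of an adjusted p under 0.05, which is 4.17% of the genes tested. Of these, 277 genes (1.93%) were higher and 320 (2.23%) lower in SM. The test was limma on log2(FPKM + 0.5), two-sided, with Benjamini-Hochberg adjustment over all 14331 genes, and 2752 genes (19.2%) had an unadjusted p under 0.05. The median log2 fold change, SM over H, was 1.45 among the genes that rose and -1.85 among those that fell, against 0.02 over all genes tested. The log2 fold change was 1 or more in either direction in 447 of the 597 genes and 2 or more in 222, and its smallest size was 0.52. The 3 SM values and the 3 H values did not overlap in 3707 genes (25.9% of those tested), 1983 higher and 1724 lower in SM, and all 597 genes past the threshold were among them.

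Bringing the libraries to a common scale by their median ratios changed little. After rescaling, 610 genes passed, and 580 of them were shared with the first list, all with the same sign. These are 97.2% of the first list and 95.1% of the rescaled one. The median log2 fold change of all genes was -0.007 after rescaling and 0.02 before, and the share of calls that were higher in SM was 44.4% after and 46.4% before.

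The share of genes past the threshold varied modestly with the level of expression. It was 4.8% of 1062 genes with a mean of 0.5 to 1 FPKM, 5.51% of 4955 genes from 1 to 10 FPKM, 3.03% of 7163 genes from 10 to 100 FPKM and 4.87% of 1151 genes at 100 FPKM or more. Differences between the varieties were therefore found from the weakest to the most abundant transcripts tested.

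The number of genes past the threshold rested on every library. With 1 library left out, 275 genes passed without SM replicate 1, 258 without SM replicate 2, 321 without SM replicate 3, 438 without H replicate 1, 216 without H replicate 2 and 358 without H replicate 3. The number fell least without H replicate 1, the library that stood apart. Of the 597 genes, 177 passed whichever library was left out and 144 passed in none of these 6 fits. All 597 kept their sign in each fit that tested them. That was fixed in advance, since their SM and H values did not overlap.

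**Figure D1:**
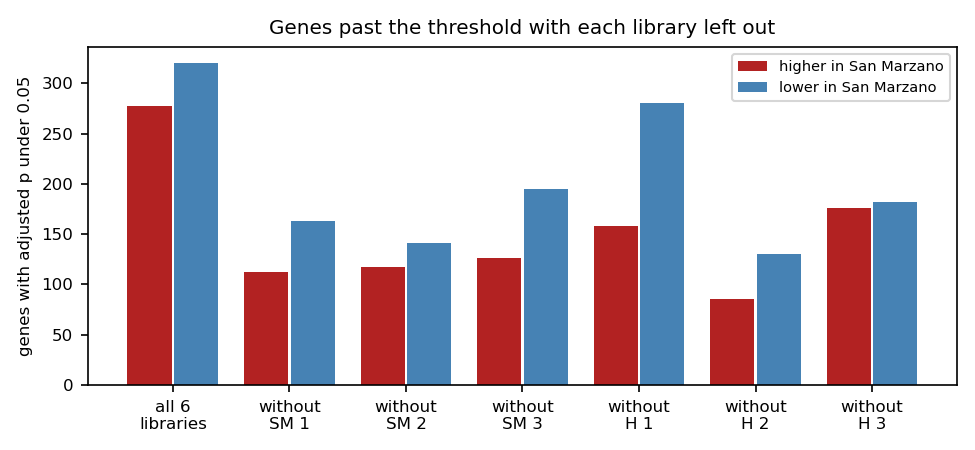
Number of genes with an adjusted p under 0.05 (y axis) with all 6 libraries and with each library left out (x axis). Red bars are genes higher in SM and blue bars genes lower in SM. With all libraries 277 genes were higher and 320 lower, and the counts without 1 library ran from 86 to 176 higher and from 130 to 280 lower.

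The genes with the largest differences were weakly expressed or nearly silent in one variety, with no library of that variety above 12 FPKM. The 10 largest rises and the 10 largest falls in SM were taken among 303 genes that passed before and after rescaling, did not overlap between the varieties, averaged at least 1 FPKM, were above 0 in at least 1 library of each variety, and had loci of like length in both tables. None of these 20 identifiers is annotated in the sources used here, so they are given by identifier and, for some, by position in the Heinz genome. Some loci are short, among them Solyc07g054810 (189 bases), Solyc09g050120 (216 bases) and Solyc02g078110 (222 bases). How far FPKM holds at such lengths was not tested.

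The largest rise was that of Solyc09g055470 (chromosome 9, 36732668 to 36733088), at 272, 282 and 229.9 FPKM in SM and 0.149, 0.763 and 1.75 FPKM in H. It averaged 261 ± 27.6 FPKM in SM and 0.888 ± 0.810 FPKM in H (SD, n = 3 each), a log2 fold change of 7.73 (SE 0.42, limma adjusted p = 0.000236). Every SM library thus held an abundant transcript that was near 0 in H. Solyc09g015010 (chromosome 9, 7427208 to 7440767) followed, at 155, 629 and 594 FPKM in SM and 3.63, 3.11 and 2.21 FPKM in H, with a log2 fold change of 6.82 (SE 0.54, limma adjusted p = 0.00125). SM replicate 1 was well below the other SM libraries for this gene, yet far above every H library.

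The SM values of Solyc05g018120 and Solyc01g112380 were nearly identical across the replicates. Solyc05g018120 (chromosome 5, 20042568 to 20043201) was at 25.6, 25.8 and 25.7 FPKM in SM and 0.363, 0.649 and 0.750 FPKM in H, a log2 fold change of 4.61 (SE 0.18, limma adjusted p = 5.64e-05). Solyc01g112380 (chromosome 1, 90217316 to 90218076) was at 16.4, 16.1 and 16.3 FPKM in SM and 0.0588, 0.0802 and 0.00939 FPKM in H, with a log2 fold change of 4.93 (SE 0.16). Its locus is also that of Solyc01g112370, which rose as well, at 3.43, 7.81 and 3.60 FPKM in SM and 0.00595, 0.00447 and 0.00201 FPKM in H. The tables give both identifiers the same start and end, so how fragments were divided between them is uncertain. Solyc03g019790 was at 13.8, 16.5 and 18.4 FPKM in SM and 0.385, 0.0420 and 0.278 FPKM in H, and Solyc10g085050 at 25, 23.5 and 19 FPKM in SM and 0.649, 0.606 and 0.504 FPKM in H. Solyc03g044670 was at 27.1, 14 and 15 FPKM in SM, while no H library exceeded 0.0544 FPKM. The loci of Solyc10g085050 and Solyc01g060020 overlap other genes in both tables. That of Solyc10g085050 is very long, at 238342 bases in the Heinz genome.

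In the other 3 rises the groups were also apart, but the calls were lost in some fits with a library left out. Solyc07g054810 was at 428, 77.8 and 417 FPKM in SM and 9.54, 8.42 and 12 FPKM in H, Solyc01g060020 at 7.60, 11.5 and 45.2 FPKM in SM and 0.719, 0.0962 and 0.159 FPKM in H, and Solyc02g078110 at 13.9, 2.54 and 14.8 FPKM in SM and 0.270, 0 and 0 FPKM in H. In each a single SM library lay far from the other SM libraries. The limma adjusted p of Solyc07g054810 was 0.0162, and 0.0519 to 0.0715 when SM replicate 1, SM replicate 3, H replicate 2 or H replicate 3 was left out. That of Solyc01g060020 was 0.0184, and 0.0667 to 0.0779 without SM replicate 2, H replicate 2 or H replicate 3. For Solyc02g078110 it was 0.0258, and 0.0802 to 0.0966 without SM replicate 1, SM replicate 3, H replicate 2 or H replicate 3.

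Among the falls, Solyc00g009760, on a sequence not placed on a chromosome, was at 0.104, 0.0606 and 0.0838 FPKM in SM and 65.4, 35.2 and 40.6 FPKM in H, a log2 fold change of -6.30 (SE 0.25, limma adjusted p = 5.64e-05). Solyc01g109180 (chromosome 1, 87976855 to 87983350), whose locus overlaps another gene, was at 0.253, 0.151 and 0.365 FPKM in SM and 72.3, 63.9 and 29.7 FPKM in H, with a log2 fold change of -6.12 (SE 0.35). Both were moderately abundant in every H library and all but absent from SM. Solyc11g045440 (chromosome 11, 37814650 to 37818949) was at 0.312, 0.182 and 0.403 FPKM in SM and 39.5, 29.2 and 33.3 FPKM in H, a log2 fold change of -5.43 (SE 0.18, limma adjusted p = 3.24e-05). Solyc05g009730 was at 2.50, 1.10 and 0.506 FPKM in SM and 92.7, 44.1 and 53.7 FPKM in H. Solyc06g035940 was the most abundant of the 10 in both varieties, at 7.73, 3.78 and 2.17 FPKM in SM and 93.2, 85.5 and 78.9 FPKM in H, and its H values differed little from each other.

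Of the remaining falls, Solyc09g050120, Solyc10g006060 and Solyc08g061330 had at least 1 SM library at 0 and none above 0.811 FPKM, against H values of 28.9, 45.8 and 21.7, of 11.4, 8.03 and 14.7 and of 25.5, 20.5 and 20.1 FPKM. Solyc01g058200 was at 0.657, 0.293 and 0 FPKM in SM and 30.5, 27.8 and 43.2 FPKM in H. Solyc12g095950 was at 3.59, 0 and 0 FPKM in SM and 32.4, 35.7 and 67.3 FPKM in H. Its limma adjusted p was 0.0211, and 0.0706 to 0.0809 when SM replicate 2, SM replicate 3, H replicate 2 or H replicate 3 was left out. The loci of Solyc01g058200, Solyc10g006060 and Solyc12g095950 overlap other genes in both tables. Of all 20 genes, 16 passed the threshold whichever library was left out.

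**Figure D2:**
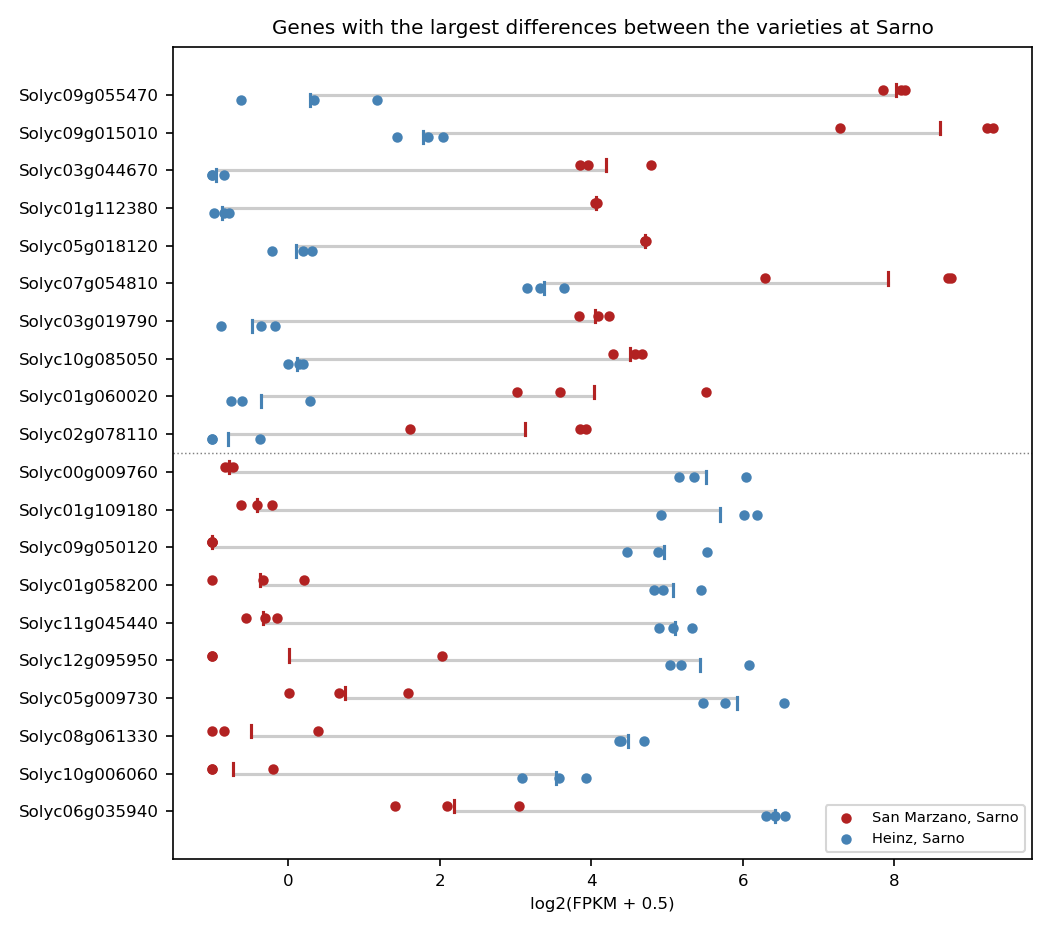
The 20 genes with the largest differences at Sarno, by the naming conditions given in the text. The x axis is log2(FPKM + 0.5), each point is a library (red SM, blue H) and each vertical tick a group mean. The 10 genes above the dotted line were higher in SM, from a log2 fold change of 7.73 to 3.92, and the 10 below it lower, from -6.30 to -4.24.

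A second group was taken by level rather than by size of difference, so its factors cannot be set against those above. Among genes past the threshold by the same conditions and with a log2 fold change of 1 or more in either direction, the 5 most abundant of each direction differed 2.02 to 4.56-fold. The most abundant rise was that of Solyc04g017690 (chromosome 4, 7758601 to 7764023), at 1072, 1381 and 962 FPKM in SM and 358, 492 and 350.0 FPKM in H, 2.85-fold higher by the means. Solyc10g076510 was at 1568, 873 and 729 FPKM in SM and 230.2, 301 and 274 FPKM in H, and Solyc04g080540 at 972, 898 and 782 FPKM in SM and 273, 279 and 159 FPKM in H. Solyc02g067580 and Solyc01g100370, whose locus overlaps another gene, averaged 902 ± 177 and 588 ± 198 FPKM in SM, against 311 ± 66 and 150.2 ± 35.4 FPKM in H (SD, n = 3 each). The groups stayed apart in all 5 genes, but none of the 5 kept its call in every fit with a library left out. Where the call was lost, limma adjusted p ran from 0.0633 to 0.0675 for Solyc04g017690 (without SM replicate 1, SM replicate 2, H replicate 1 or H replicate 3), from 0.0722 to 0.0779 for Solyc10g076510 (SM replicate 2 or any H library) and from 0.061 to 0.0645 for Solyc02g067580 (SM replicate 1, SM replicate 3, H replicate 1 or H replicate 3). It ran from 0.0511 to 0.0562 for Solyc04g080540 (SM replicate 1 or 2) and from 0.0531 to 0.068 for Solyc01g100370 (SM replicate 2, H replicate 1 or H replicate 3).

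The most abundant fall was that of Solyc11g063500 (chromosome 11, 46703674 to 46703845), at 276, 202 and 413 FPKM in SM and 1285, 787 and 1169 FPKM in H, 3.63-fold lower in SM by the means. Its locus is only 171 bases long, and how far FPKM holds at such a length was not tested. Solyc02g038740 was at 112, 51.5 and 86.2 FPKM in SM and 234, 348 and 216 FPKM in H, and Solyc09g008200 at 104, 92.8 and 124 FPKM in SM and 261, 199 and 188 FPKM in H. Solyc05g050120 was at 84.8, 90.1 and 69.8 FPKM in SM and 187, 179 and 177 FPKM in H, a log2 fold change of -1.15 (SE 0.13, limma adjusted p = 0.00739). With its narrow spread in both varieties it was the only one of these 10 abundant genes to keep its call whichever library was left out. Where the call was lost, limma adjusted p ran from 0.0544 to 0.101 for Solyc11g063500 (without any library but SM replicate 3), from 0.0778 to 0.119 for Solyc02g038740 (any but SM replicate 1) and from 0.0576 to 0.123 for Solyc09g008200 (any of the 6). The fifth gene of this group, endoglucanase 1 (Solyc09g010210), is described with the cell wall genes.

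Some genes were listed at 0 in all 3 libraries of 1 variety. This was so for 137 of the genes tested, of which 100 passed the threshold, leaving 497 calls (247 higher and 250 lower in SM) with a value above 0 in both varieties. When the fit was repeated without these 137 genes, 413 passed (205 higher and 208 lower). For such genes no fold is given, and since the fitted value depends on the added 0.5 it is no bound either. An exact 0 in these tables may also be a failed estimate, so it is reported only as listed.

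Of the genes tested, 91 were listed at 0 in SM, with a median H mean of 4.06 FPKM, and 10 of them had an H mean of at least 100 FPKM. The most abundant was Solyc07g049140 (chromosome 7, 56690994 to 56692596), at 0 in all SM libraries from Sarno and at 11574, 17494 and 6118 FPKM in H. It was also at 0 in all 3 SM libraries from Acerra, where H had 7215, 11829 and 8025 FPKM. In contrast, the next 4 by H level were at 0 in SM only at Sarno. Solyc03g031860 was at 3034, 4251 and 2849.9 FPKM in H at Sarno, and at 4098, 3583 and 3250.1 FPKM in SM at Acerra. Solyc06g059740 was at 2207, 4125 and 1702 FPKM in H at Sarno, and at 3643, 4032 and 3621 FPKM in SM at Acerra. Solyc03g083910 and Solyc01g099190 had H means of 2085 and 1878 FPKM at Sarno, and SM means of 1309.7 and 2953 FPKM at Acerra. The SM locus of Solyc03g083910 is 1.11 times as long as its H locus. The SM locus of Solyc01g099190 is 0.264 times as long as its H locus, which overlaps another gene. All 4 were thus abundant transcripts in H at both sites and in SM at Acerra, while each of the 3 SM libraries from Sarno listed exactly 0. Over all 91 genes, 73 were at 0 in the SM libraries from Acerra too, 9 had an SM mean there of at least 0.5 FPKM, and 5 of at least 100 FPKM.

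Conversely, 46 genes tested were listed at 0 in H, with a median SM mean of 1.99 FPKM, and 40 of them were at 0 in all 3 H libraries from Acerra too. Solyc11g027650 (chromosome 11, 15200812 to 15345818), a very long locus that overlaps other genes, was at 1422, 2373 and 1059 FPKM in SM. Solyc06g024230 was at 434, 1133 and 299 FPKM in SM, where its locus is 27.7 times as long as in the H table. Solyc03g058990 was at 38, 57.2 and 39.5 FPKM, Solyc04g016350 at 19.7, 26.1 and 14.5 FPKM and Solyc06g076530, which overlaps another gene, at 24.2, 28.4 and 7.57 FPKM in SM. The SM locus of Solyc06g076530 is 0.791 times as long as its H locus. In H at Acerra, 4 of these 5 genes were at 0 in every library and Solyc04g016350 reached 0.0277 FPKM in 1 library, so the pattern was the same at both sites.

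The gene models of the 2 tables differed for part of the genes, and calls were more frequent there. The locus length differed by more than 5% between the SM and H tables for 2836 genes tested (19.8%), and 220 of these passed the threshold (7.76%), against 377 of 11495 genes with loci of like length (3.28%). Locus lengths also differed for 43 of the 91 genes listed at 0 in SM and for 27 of the 46 listed at 0 in H. Loci that overlap another matched gene in either table made up 13.1% of the genes tested (1882) and 25.5% of the genes past the threshold (152). Whether such fragments were divided alike between neighbours in both assemblies is unknown, and the part of these differences in the calls was not tested.

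By position in the Heinz genome, calls were spread over all chromosomes. The share past the threshold ran from 3.34% on chromosome 6 to 4.84% on chromosome 4. Of 286 windows of 1 Mb with at least 10 genes tested, 84 held no call. The 5 windows with the highest share were at 59 Mb on chromosome 5 (4 of 22 genes), 90 Mb on chromosome 1 (2 of 11, the pair that shares the locus of Solyc01g112380), 14 Mb on chromosome 3 (2 of 11), 51 Mb on chromosome 7 (2 of 11) and 7 Mb on chromosome 4 (4 of 23). In the window on chromosome 3 the calls were in opposite directions. Solyc03g044670 was higher in SM, as given above, and Solyc03g044660 lower, at 16.4, 16.9 and 17.6 FPKM in SM and 26.1, 28.2 and 25.8 FPKM in H. The call of Solyc03g044660 (limma adjusted p = 0.0244) was lost, at 0.058 to 0.111, without any library but H replicate 3.

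Genes that lie next to each other among those tested, some of them far apart, formed 33 runs of calls in 1 direction. How many runs the share of calls alone would give was not worked out. The pair that shares the locus of Solyc01g112380 is among them. Of the 33 runs, 2 held 3 genes. One was a group of decarboxylase genes on chromosome 8, described below. The other, chosen after its values were seen, was Solyc06g051140, Solyc06g051150 and Solyc06g051160 on chromosome 6, all lower in SM. Solyc06g051160 was at 2.96, 2.61 and 2.98 FPKM in SM and 21.9, 23.7 and 23.8 FPKM in H, a log2 fold change of -2.82 (SE 0.12, limma adjusted p = 8.61e-05). Solyc06g051140 was at 3.37, 3.30 and 5.81 FPKM in H and Solyc06g051150 at 2.13, 2.17 and 4.0 FPKM in H, while neither exceeded 0.00102 FPKM in SM. These 2 identifiers share 1 locus in the H table but not in the SM table, so their values are uncertain.

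The genes that carry a description in the study were followed as 12 lists by function. The study picked most of these genes for their response to the site, using these same Sarno libraries, so the lists are no independent evidence of a direction. Of 148 genes listed, 131 were matched and 110 passed the filter on low values. Of these 110, 6 passed the threshold (5.45%, against 4.17% of all genes tested), 1 higher and 5 lower in SM. The share was thus close to that of the genes at large. Their median log2 fold change was -0.79, against 0.02 over all genes tested, with 32 genes above 0 and 78 below, and 35 had an unadjusted p under 0.05.

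The described genes varied more between replicates than genes at large. Their median SD of log2 values was 0.704 in SM and 0.971 in H, against 0.193 in SM and 0.231 in H over all genes tested. SM replicate 1 held the lowest of the SM values for 79 of the 110 genes, and H replicate 1 the highest of the H values for 54. Leaving out libraries moved the count in both directions. It was 2 without SM replicate 1, 4 without SM replicate 2, 2 without SM replicate 3, 3 without H replicate 2 and 3 without H replicate 3. Without H replicate 1, however, 16 of 100 described genes passed (16%, against 3.10% of all 14132 genes then tested), 2 higher and 14 lower in SM.

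**Figure D3:**
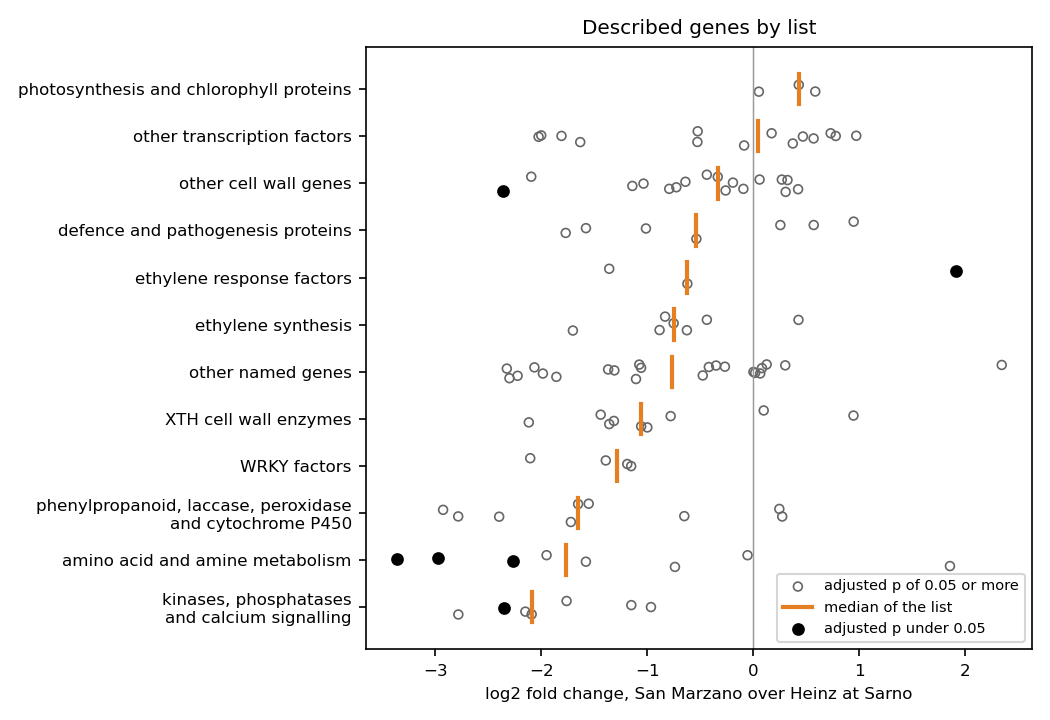
Log2 fold change, SM over H at Sarno (x axis), of the 110 described genes tested, by list (y axis). Filled points passed an adjusted p of 0.05, open points did not, and orange ticks are list medians. The lists of kinases and calcium signalling and of amino acid and amine metabolism lie lowest, with medians of -2.09 and -1.76.

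Amino acid and amine metabolism held 3 of the 6 calls, from 8 genes tested, against 4.17% called among all genes. All 3 are annotated as decarboxylase family proteins and lie within 1 stretch of chromosome 8. The paper describes Solyc08g068680 as down-regulated in SM at Sarno and correlated with neighbouring decarboxylase genes, using the same SM libraries. Low SM values were thus part of the choice, so their shared direction is no independent evidence. Solyc08g068600 (chromosome 8, 54940070 to 54942182) was at 0.524, 1.24 and 0.657 FPKM in SM and 12.7, 19.2 and 8.16 FPKM in H, a log2 fold change of -3.37 (SE 0.35, limma adjusted p = 0.0045). Solyc08g068680 was at 0.417, 1.91 and 1.56 FPKM in SM and 23.6, 9.51 and 8.59 FPKM in H (-2.97, SE 0.50, adjusted p = 0.0292). Solyc08g068610 was at 0.0617, 0.271 and 0.193 FPKM in SM and 5.23, 2.61 and 1.38 FPKM in H (-2.27, SE 0.43, adjusted p = 0.0395). All 3 were lower in every SM library than in any H library, 10.7 to 17.5-fold by the means. Only Solyc08g068600 kept its call whichever library was left out. The adjusted p of Solyc08g068680 was 0.06 to 0.0806 without any library but H replicate 1, and that of Solyc08g068610 0.0531 to 0.129 without any library but H replicate 3.

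The list as a whole had 8 genes tested, 7 of them below 0, with a median of -1.76. The 2 arginine decarboxylase genes, which begin a route from arginine to polyamines, lay on opposite sides and neither passed. Solyc01g110440 was at 26, 42.2 and 12.7 FPKM in SM and 3.51, 5.95 and 11.6 FPKM in H (adjusted p = 0.126), and its locus overlaps another gene. Solyc10g054440 was at 3.71, 22 and 27.3 FPKM in SM and 57.6, 28.7 and 89.2 FPKM in H (adjusted p = 0.24). The SM values of Solyc01g110440 lay above all H values and those of Solyc10g054440 below all H values, each by a narrow margin.

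Of 17 cell wall genes tested, XTHs not counted, 1 passed the threshold, against 4.17% of all genes tested. Endoglucanase 1 (Solyc09g010210, chromosome 9, 3596590 to 3602048), an enzyme that cuts glucan chains of the wall, fell to 39, 82.6 and 22.3 FPKM in SM, against 214, 260.1 and 183 FPKM in H, which is 4.56-fold lower by the means (log2 fold change -2.36, SE 0.45, limma adjusted p = 0.0401). The groups were far apart, but the SM values varied widely and the adjusted p was 0.0689 to 0.133 without any library but SM replicate 2. The other 16 genes of the list of glycosyltransferases, pectinesterases and further wall proteins did not pass, and the list had a median of -0.33. The pollen allergen gene Solyc04g054810 was the most abundant of them and overlapped between the varieties, at 429, 683 and 461 FPKM in SM and 531, 643 and 793 FPKM in H. Beta-galactosidase Solyc12g008840 was at 58.5, 71.5 and 83.7 FPKM in SM and 63.2, 62.3 and 45.1 FPKM in H, and glucan synthase like 3, Solyc01g006370, at 14.1, 15.8 and 19.5 FPKM in SM and 11.7, 13 and 11.5 FPKM in H.

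Of the 9 XTH genes, which cut and rejoin xyloglucan in the wall, none passed, and their median was -1.06 with 7 genes below 0. The largest difference was that of an XTH7 gene, Solyc12g017240, at 21.6, 26.6 and 11.9 FPKM in SM and 23.3, 261 and 97.1 FPKM in H (log2 fold change -2.12, SE 0.83, limma adjusted p = 0.237). H replicate 1 lay within the range of SM for this gene and the other H libraries well above it. Without H replicate 1 its adjusted p was 0.0419. Its locus is also that of Solyc12g017230 in both tables. The XTH9 genes Solyc03g093120 and Solyc03g093130 varied in the same way, at 5.47, 22.7 and 16.4 and 8.43, 33.6 and 26.8 FPKM in SM, against 11.7, 80.7 and 35.6 and 16.9, 86.8 and 48.9 FPKM in H. Their SM and H values overlapped.

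Genes of ethylene synthesis lay below 0 for 6 of 7 genes tested (median -0.75), and none passed. Both ACS6 genes, ACC synthases with neighbouring identifiers on chromosome 8, were lower in every SM library without reaching the threshold. Solyc08g081550 was at 7.78, 9.74 and 7.72 FPKM in SM and 13.9, 20.1 and 12.7 FPKM in H (log2 fold change -0.83, SE 0.20, limma adjusted p = 0.0834), and Solyc08g081540 was at 0.329, 0.390 and 0.343 FPKM in SM and 0.778, 1.11 and 0.936 FPKM in H (adjusted p = 0.15). For ACS2, whose values are given with the libraries, the log2 fold change was -1.70 (SE 0.55, adjusted p = 0.164), with H replicate 1 well above the other H libraries.

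Downstream of ethylene, 1 of 3 ethylene response factors tested passed, against 4.17% of all genes tested. It was the single described gene past the threshold that was higher in SM. Ethylene responsive transcription factor 2b (Solyc09g075420, chromosome 9, 62625025 to 62626247) was at 392, 235 and 320.1 FPKM in SM and 62.7, 116 and 74 FPKM in H, 3.74-fold higher by the means (log2 fold change 1.92, SE 0.29, limma adjusted p = 0.0183). All SM libraries were well above the highest H library. The adjusted p was 0.0627 to 0.0706 without SM replicate 1, SM replicate 3 or H replicate 3. The others did not pass and had SM values that overlapped those of H. Solyc10g009110, whose H locus overlaps another gene, was at 33.9, 45.5 and 57.1 FPKM in SM and 31.9, 111 and 91.2 FPKM in H, and Solyc11g012980 at 2.07, 4.57 and 4.93 FPKM in SM and 3.02, 30.2 and 10.6 FPKM in H.

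Among kinases, phosphatases and calcium signalling genes all 7 genes tested lay below 0 (median -2.09) and 1 passed, against 4.17% of all genes tested. This LRR receptor-like serine/threonine kinase gene (Solyc06g008300, chromosome 6, 2161005 to 2164937), of a class of receptors at the cell surface, was at 4.37, 5.72 and 5.68 FPKM in SM and 34.3, 24.3 and 28.6 FPKM in H, 5.53-fold lower in SM by the means (log2 fold change -2.36, SE 0.18, limma adjusted p = 0.000977). It kept its call whichever library was left out. Its SM locus, however, is 7.63 times as long as its H locus and overlaps another gene. In the other 6 genes of the list H replicate 1 was the lowest H library, and most split H into replicate 1 on one side and replicates 2 and 3 on the other. A protein phosphatase 2C gene, Solyc06g007190, was at 1.12, 5.36 and 2.34 FPKM in SM and 3.47, 19.1 and 26.3 FPKM in H. SRC2 (Solyc01g091590) was at 7.68, 10.3 and 3.92 FPKM in SM and 18.9, 90.1 and 71.7 FPKM in H (adjusted p = 0.0665). A calmodulin-like gene, Solyc02g094000, coding for a calcium sensor, was at 13.6, 44.5 and 13.3 FPKM in SM and 15.3, 199 and 242 FPKM in H (adjusted p = 0.341), and its loci differ in length between the tables. A calmodulin-binding protein gene, Solyc03g119250, was at 4.64, 8.62 and 3.67 FPKM in SM and 4.73, 37.2 and 38.2 FPKM in H. Without H replicate 1, SRC2, Solyc02g094000 and Solyc03g119250 passed, at adjusted p of 0.0121, 0.036 and 0.0176. Mitogen-activated protein kinase 3 (Solyc06g005170) was at 10.2, 19.2 and 10.7 FPKM in SM and 16.7, 37.9 and 38.4 FPKM in H and did not pass with or without that library.

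The same split of the H libraries was seen in several transcription factors, but not in their lists as a whole. H replicate 1 was the lowest H library in 2 of 4 WRKY genes tested and the highest in 2. In the 14 further transcription factors tested it was the lowest in 6 and the highest in 8. A WRKY gene, Solyc01g095630, was at 5.01, 7.85 and 3.42 FPKM in SM and 6.33, 60.7 and 33.8 FPKM in H (limma adjusted p = 0.216, and 0.0194 without H replicate 1). WRKY factors are plant regulators known from defence, and the list had 4 genes tested, all below 0 with a median of -1.29 and no call. CRT binding factor 2 (Solyc03g026280), of a family known from the response to cold, was at 5.51, 14.3 and 3.52 FPKM in SM and 6.74, 94.1 and 32.9 FPKM in H (adjusted p = 0.314, and 0.0857 without H replicate 1). A myb-related gene, Solyc07g053230, was at 0.150, 0.418 and 0.122 FPKM in SM and 0.172, 3.72 and 8.32 FPKM in H, and passed only without H replicate 1 (adjusted p = 0.0186). Over the 14 further transcription factors tested, the median was 0.04 and none passed. Dof zinc finger protein 4 (Solyc02g090310) lay on the other side, at 26.9, 29.1 and 29.3 FPKM in SM and 20.2, 12.9 and 16.7 FPKM in H, with an adjusted p of 0.0651, and of 0.0416 without H replicate 1.

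The remaining genes that passed only without H replicate 1 came from several lists. A glycosyltransferase gene, Solyc02g087350, was at 6.48, 11.1 and 5.03 FPKM in SM and 11.9, 64.9 and 42.6 FPKM in H, and a lipase gene, Solyc08g078090, at 0.389, 1.40 and 0.643 FPKM in SM and 2.62, 5.85 and 9.39 FPKM in H. A Pto-like kinase gene of the defence list, Solyc11g020230, was at 0.0957, 0.385 and 0.281 FPKM in SM and 0.704, 3.15 and 3.21 FPKM in H. A mitochondrial carrier gene, Solyc05g051400, was at 4.26, 5.71 and 2.96 FPKM in SM and 6.46, 47.4 and 36.2 FPKM in H, and Solyc01g087580, described as an unknown protein, at 6.09, 18.6 and 11.4 FPKM in SM and 20.6, 138 and 64 FPKM in H. In all 5, H replicate 1 was the lowest H library. Their limma adjusted p without it was 0.0185 for the glycosyltransferase, 0.0296 for the lipase, 0.0155 for the kinase, 0.00553 for the carrier and 0.0445 for Solyc01g087580, against 0.0595 to 0.149 with all 6 libraries.

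Phenylpropanoid genes, laccases, peroxidases and cytochromes P450 showed the reverse picture in H. This list had a median of -1.65 over 9 genes tested, with no call, and 8 of the 9 had their highest value of all 6 libraries in H replicate 1. A cytochrome P450 gene, Solyc01g109140, was at 0.0345, 1.91 and 0.615 FPKM in SM and 74.3, 5.01 and 1.03 FPKM in H, and another, Solyc06g066230, at 0, 0.310 and 0.604 FPKM in SM and 32.4, 2.95 and 0.789 FPKM in H. The peroxidase gene Solyc01g006300 was at 0, 0 and 0.161 FPKM in SM and 54.1, 0.341 and 0.0269 FPKM in H, and the laccase gene Solyc04g072280 at 0, 1.35 and 0.374 FPKM in SM and 33.2, 0.911 and 0.109 FPKM in H. Laccases and peroxidases are known for joining phenolic units into lignin. Without H replicate 1 the median of the list was -0.28 over 8 genes tested. A 4-coumarate CoA ligase-like gene, Solyc06g035960, was also highest in H replicate 1, but its H values lay closer together. It was at 5.46, 13.4 and 9.18 FPKM in SM and 34.9, 22.3 and 24.5 FPKM in H, without overlap and with a limma adjusted p of 0.0566.

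Defence and pathogenesis proteins had a median of -0.54 over 7 genes tested, and none passed. A chitinase gene, Solyc07g009530, was at 87.4, 653 and 1545 FPKM in SM and 2707, 115 and 166 FPKM in H. Values within each variety spanned more than an order of magnitude, and the sign of the difference changed with the library left out. The 3 photosynthesis and chlorophyll genes, given with the libraries, had a median of 0.43 and did not pass, and the 22 other described genes had a median of -0.77 with no call.

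**Figure D4:**
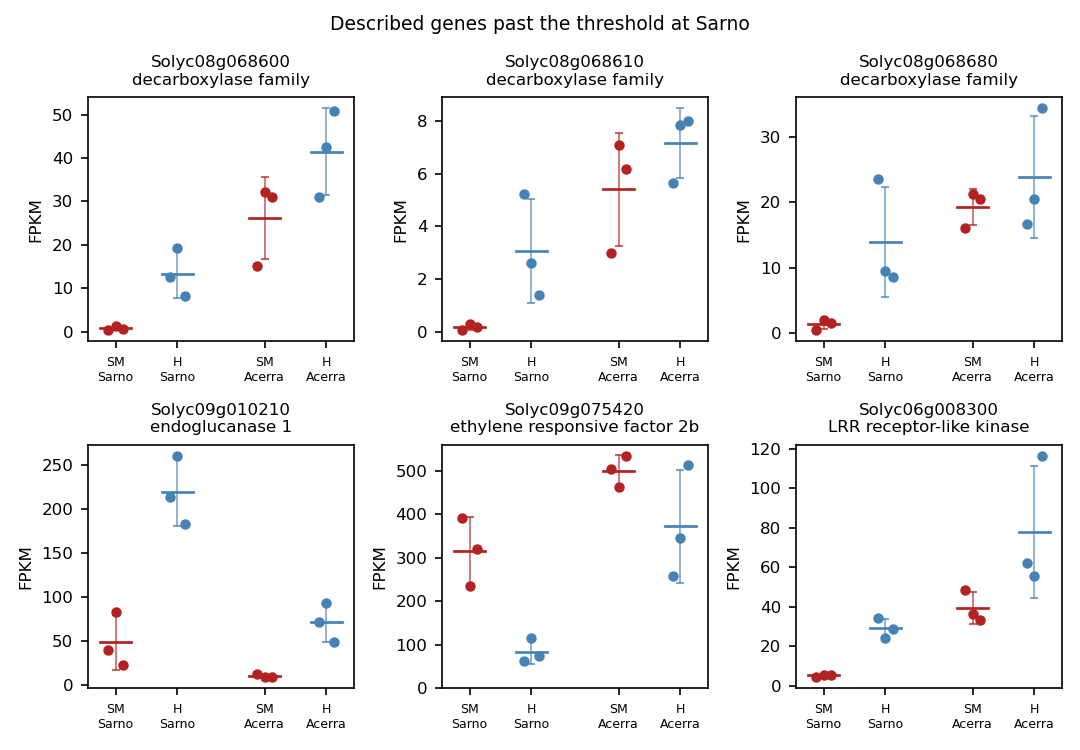
FPKM (y axes, linear, from 0) of the 6 described genes past the threshold at Sarno, in SM and H at Sarno and at Acerra. Points are libraries, horizontal lines group means and error bars the SD (n = 3). At Sarno the SM libraries lie below the H libraries in 5 genes and above them in ethylene responsive transcription factor 2b.

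At Acerra the same varieties were compared in other libraries, counted on the same assemblies and in the same runs. There 2979 of 14097 genes passed (21.1%), 1207 higher and 1772 lower in SM. The spread between replicates was smaller at Acerra, with a median SD of log2 values of 0.174, against 0.231 at Sarno. Its part in the number of calls was not tested. Of the 597 Sarno calls, 580 were tested at Acerra, and 562 of these had the same sign there. Both sites called 440 genes, which are 73.7% of the Sarno calls and 14.8% of the Acerra calls. Of the 440, 189 were higher and 249 lower in SM at both sites, and 2 went in opposite directions.

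The large differences recurred at Acerra in most cases. Of the 20 genes with the largest differences, 18 passed there in the same direction. Solyc09g055470 was at 299, 294 and 365 FPKM in SM and 0.204, 0.0116 and 0.796 FPKM in H at Acerra, and Solyc00g009760 was at 0, 0 and 0 FPKM in SM and 62.9, 63.4 and 60.0 FPKM in H. Solyc02g078110 and Solyc12g095950 did not pass (limma adjusted p = 0.49 and 0.117). Among the abundant genes, 4 of the 5 that rose at Sarno did not pass at Acerra. Solyc10g076510, Solyc04g080540 and Solyc01g100370 had log2 fold changes of 0.66, 0.39 and 0.48 there (limma adjusted p = 0.1, 0.213 and 0.05003). Solyc02g067580 was at 509, 549 and 638 FPKM in SM and 615, 512 and 647 FPKM in H at Acerra. In the limma test between sites over 12 libraries none of these 4 genes passed (adjusted p = 0.301, 0.174, 0.179 and 0.101, in the order given). All 5 abundant genes that fell at Sarno, endoglucanase 1 included, also passed at Acerra in the same direction. Endoglucanase 1 was at 11.6, 9.14 and 8.84 FPKM in SM and 71.2, 92.8 and 48.6 FPKM in H at Acerra.

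The decarboxylase genes, a group singled out in the paper from the same SM libraries, showed a difference at Sarno that did not pass at Acerra. Solyc08g068600 was at 15.2, 32.3 and 31 FPKM in SM and 31, 42.5 and 50.8 FPKM in H at Acerra (limma adjusted p = 0.157), and Solyc08g068680 at 16.1, 21.2 and 20.6 FPKM in SM and 16.7, 20.5 and 34.4 FPKM in H (adjusted p = 0.54). Tested directly over the 12 libraries, their differences at the 2 sites did not differ from each other past the threshold (adjusted p = 0.147 and 0.179, and 0.265 for Solyc08g068610). Nor did those of ethylene responsive transcription factor 2b (0.252) or the LRR receptor-like kinase gene (0.224), which did not pass at Acerra (adjusted p = 0.206 and 0.0656).

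The difference between the varieties itself differed between the sites for 12 of 14321 genes tested (0.0838%), in 1667 at an unadjusted p under 0.05. In 8 of the 12 the log2 fold change, SM over H, was lower at Sarno than at Acerra and in 4 it was higher. The 5 largest were genes listed at 0 in SM at Sarno but not at Acerra, 4 of them described above and the fifth Solyc01g095330, at 622, 852 and 969.6 FPKM in H at Sarno and 910.4, 858 and 1014 FPKM in SM at Acerra. Solyc06g009950 and Solyc06g030470 passed at both sites in opposite directions. The locus of Solyc06g009950 is only 171 bases long, and that of Solyc06g030470 is 1.14 times as long in SM as in H. Solyc06g009950 was at 5.28, 10.5 and 9.72 FPKM in SM and 0.468, 0.689 and 0 FPKM in H at Sarno, and at 0.887, 0 and 0.596 FPKM in SM and 14.7, 8.54 and 4.86 FPKM in H at Acerra. Solyc06g030470 was at 16, 19.9 and 15.7 FPKM in SM and 25.5, 34.5 and 31.5 FPKM in H at Sarno, and at 72.9, 85.8 and 87.5 FPKM in SM and 28.1, 34.5 and 38.8 FPKM in H at Acerra. The Sarno call of Solyc06g030470 (limma adjusted p = 0.047) was lost, at 0.0809 to 0.162, without any library but H replicate 1.

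**Figure D5:**
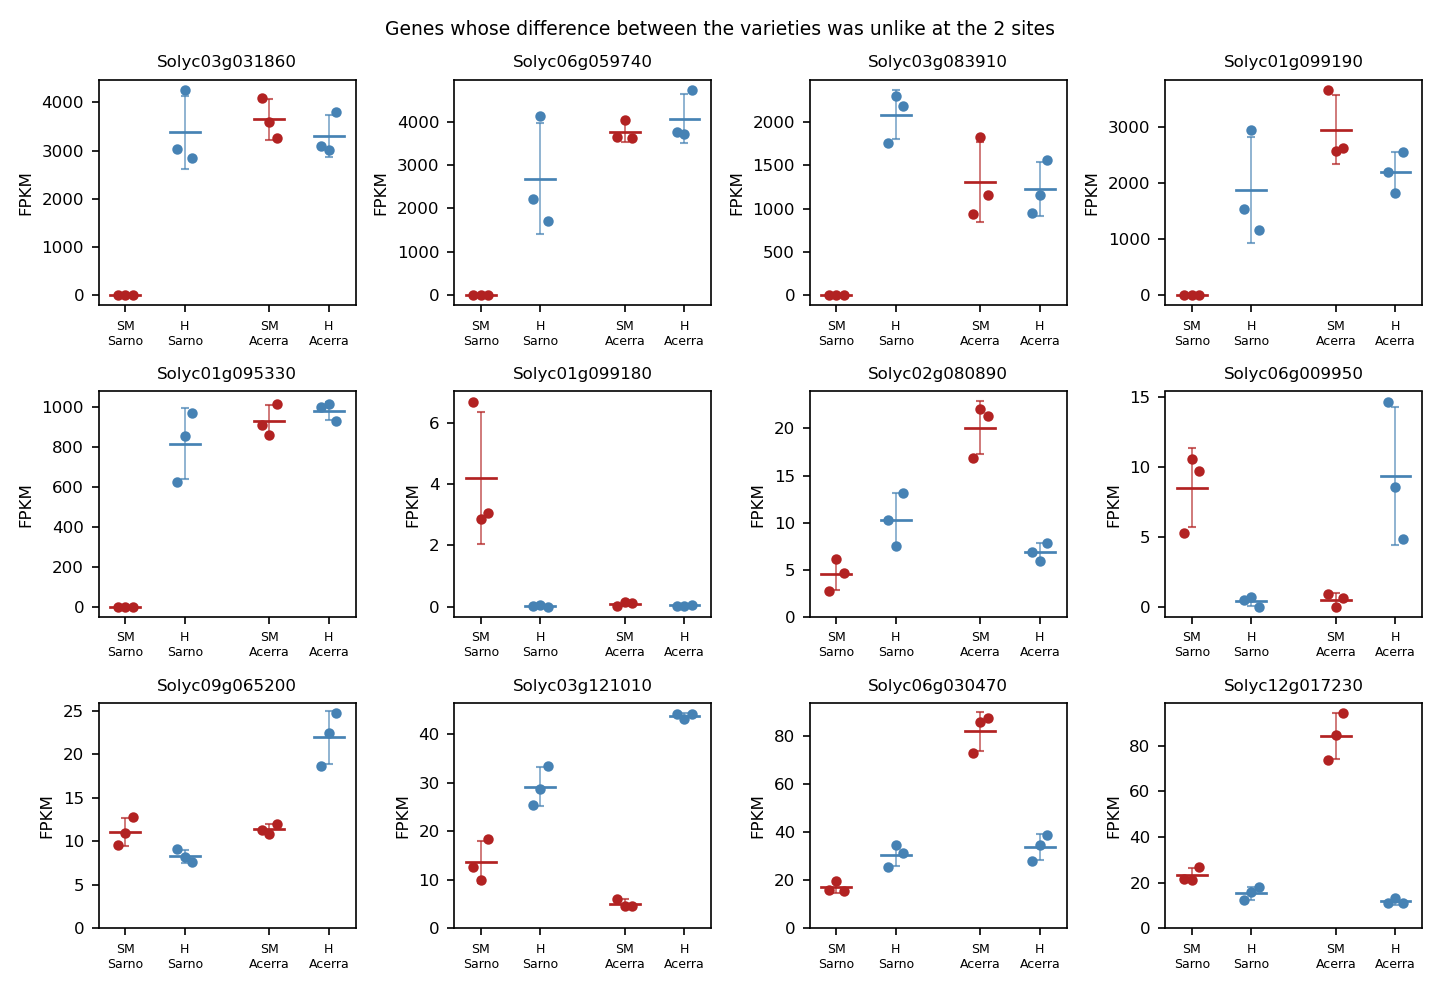
FPKM (y axes, linear) of the 12 genes whose SM against H difference differed between Sarno and Acerra. Red points are SM and blue points H libraries, lines are group means and error bars the SD (n = 3). In the first 5 panels SM is listed at 0 at Sarno while the other 3 groups lie between 622 and 4723 FPKM.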

How the data were processed

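RNA from red ripe fruit was sequenced from TruSeq libraries. The authors called bases with CASAVA (1.8.2), aligned reads with TopHat (2.0.6) and deposited FPKM values per locus from Cufflinks (2.1.1), with correction for multiply mapped reads and 1 run per variety, H on the Heinz genome and SM on its own assembly. The deposited tables held 35773 SM loci (2309 with no identifier, 1548 with several) and 35566 H loci (2261 with none, 1359 with several), which were left out. The FPKM tables hold no fragment totals, and those the study states were not used here.

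Genes listed once under a single identifier in both tables were tested with limma (3.58.1, R 4.3.3) on log2(FPKM + 0.5), with a mean-variance trend and Benjamini-Hochberg adjusted p-values, called below 0.05. Fold changes on this scale understate those of weak genes. The same fit was made at Acerra, and the difference between sites was tested over 12 libraries. The study states no test of transcript levels between varieties, so no design was taken from it. Scripts were tested on simulated data.

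Named were the 10 largest rises and falls under the conditions given above (locus lengths within 5%), the 5 most abundant of each direction with a log2 fold change of 1 or more either way, the 5 most abundant genes listed at 0 in each variety, described genes, and the 5 windows of 1 Mb. Members and lists were chosen with earlier results of these data known. Alternatives were other scalings, pseudocounts of 0.1 and 1, other filters, no trend, a robust fit, a replicate block, all 18 libraries and each library left out. None of the identifiers matched the RefSeq gene table used, so no other names or sequences are given.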

Additional observations from a re-analysis of the deposited data

Results flagged for a closer look

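The 12 genes below were looked at again because the difference between SM and H at Sarno differed from the same difference at Acerra by the test of that difference itself (limma over 12 libraries, Benjamini-Hochberg over 14321 genes). The values are log2 fold changes, SM over H, at Sarno minus those at Acerra. For the 5 genes listed at 0 in SM at Sarno they depend on the added 0.5 and are no bound. They were -12.84 for Solyc03g031860, -12.19 for Solyc01g099190, -12.18 for Solyc06g059740, -12.09 for Solyc03g083910 and -10.57 for Solyc01g095330. In RSV, the third variety, at Sarno, Solyc06g059740, Solyc03g083910 and Solyc01g095330 were also listed at 0 in all 3 libraries, while Solyc03g031860 was at 2066, 2021 and 4421 FPKM and Solyc01g099190 at 1325, 1526 and 2261 FPKM.

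Next to Solyc01g099190 lies Solyc01g099180, with a value of 2.92 (SE 0.39, adjusted p = 0.0249). It was at 6.68, 2.85 and 3.05 FPKM in SM and 0.0374, 0.0479 and 0.00296 FPKM in H at Sarno, and at 0.0245, 0.160 and 0.111 FPKM in SM and 0.0211, 0.0372 and 0.0654 FPKM in H at Acerra. The SM locus of Solyc01g099190 is 0.264 times as long as its H locus, and Solyc01g099180 was not tested at Acerra alone. Solyc06g009950, with opposite directions at the sites, had a value of 6.69 (SE 0.69, adjusted p = 0.00262), and Solyc06g030470, also with opposite directions, had -2.08 (SE 0.22, adjusted p = 0.0027).

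The remaining 4 genes were above 0 in every library of both varieties at both sites. Solyc12g017230, which shares its locus with an XTH7 gene, had a value of -2.20 (adjusted p = 0.00224). It was at 21.7, 21.1 and 26.7 FPKM in SM and 12.4, 15.7 and 18 FPKM in H at Sarno, and at 73.8, 84.7 and 94.2 FPKM in SM and 10.9, 13.4 and 10.9 FPKM in H at Acerra. Solyc02g080890 had -2.61 (adjusted p = 0.0309), with 2.79, 6.10 and 4.64 FPKM in SM and 10.3, 7.50 and 13.2 FPKM in H at Sarno, and 16.9, 22.1 and 21.3 FPKM in SM and 6.91, 5.93 and 7.89 FPKM in H at Acerra. Solyc03g121010 had 1.89 (adjusted p = 0.0384), with 12.5, 9.99 and 18.4 FPKM in SM and 25.4, 28.6 and 33.4 FPKM in H at Sarno, and 6.09, 4.63 and 4.59 FPKM in SM and 44.1, 43 and 44.2 FPKM in H at Acerra. Solyc09g065200 had 1.3 (adjusted p = 0.0384), with 9.55, 10.9 and 12.8 FPKM in SM and 9.07, 8.16 and 7.63 FPKM in H at Sarno, and 11.3, 10.9 and 12 FPKM in SM and 18.7, 22.5 and 24.8 FPKM in H at Acerra.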

How the results depend on the processing

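The count of 597 genes stayed between 535 and 611 under other scalings, pseudocounts and minimum means, without a trend and in a robust fit. In a new fit of only the genes with loci of like length, with fewer genes tested, it was 320 (142 higher and 178 lower in SM). In the first fit 377 genes with loci of like length passed. The count was 1906 (974 and 932) in the fit of all 18 libraries, which estimates the spread from every group. Refitted without genes listed at 0 in 1 variety, it was 413 (205 higher and 208 lower). With 1 library left out, the count ran from 216 to 438, with 86 to 176 higher and 130 to 280 lower. With the replicate number as a block, 196 genes passed at Sarno (76 higher and 120 lower), 1761 at Acerra and 8 in the test between sites. Whether the numbers pair the libraries is not stated. Deviations from the group means correlated at -0.365, -0.134 and -0.156 between same-numbered SM and H libraries. No library correlated best with its own number. With 3 libraries in a group this cannot decide whether they are paired. Leaving out 1 library ended 71 of 300 calls over the 50 named genes called, and the other settings ended 24 of 583. Leaving out 1 library could reverse none, since the SM and H values of these genes did not overlap. The genes named for size or abundance had to pass after rescaling, so that setting could not end their calls. Of described genes that did not pass, the log2 fold change of the laccase gene Solyc04g072280 ran from -2.89 (without H replicate 3) to 0.0073 (without H replicate 1). That of the chitinase gene Solyc07g009530, 0.26 with all libraries, ran from -0.64 to 1.69 and was below 0 without SM replicate 2, SM replicate 3, H replicate 2 or H replicate 3. Those of the green-tissue genes Solyc03g115900 (-0.68 to 1.23) and Solyc06g060340 (-0.56 to 0.41) also crossed 0. The precision of weak genes was not estimated from fragment counts.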

Other observations

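RSV, the third variety, was counted on an assembly of its own and is not part of the comparison. In RSV at Sarno, Solyc07g049140, which was listed at 0 in SM at both sites, was at 6389, 5377 and 9244 FPKM. Of genes listed at 0 in H, Solyc03g058990 was at 80.3, 54.4 and 44.8 FPKM, Solyc04g016350 at 18.5, 16.4 and 28.1 FPKM and Solyc06g076530 at 8.77, 7.32 and 26.8 FPKM in RSV, while Solyc11g027650 was listed at 0 there too.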
